A study of Mus musculus with 4 samples.

Results

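The carbonic anhydrases examined here are 10 genes (Car1, Car2, Car3, Car4, Car5a, Car5b, Car8, Car12, Car13 and Car14) of 27653 named genes on the array. They were chosen by name with the knockout over control ratios of these arrays known, and Car1 was chosen for its low ratio. Their ratios are therefore given as a description with no test. The study set livers of 4 mice with a liver-directed conditional NIPP1 knockout against livers of 4 control mice. NIPP1, the product of Ppp1r8, is a nuclear regulator of protein phosphatase 1. All 8 were untreated male mice of a mixed strain, 2 months old, and each was measured once. Each of 4 two-colour arrays carried total liver RNA of 1 knockout and 1 control mouse. The knockout RNA was in Cy3 on replicates 1 and 2 and in Cy5 on replicates 3 and 4. The sources used here do not give the Cre line, the deleted exons or the alleles of the control mice.

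Carbonic anhydrases are zinc enzymes that interconvert carbon dioxide and bicarbonate. In the liver, cytosolic forms buffer pH, mitochondrial forms supply bicarbonate to urea synthesis and gluconeogenesis, and membrane forms act at the cell surface. Some members of the family have lost the activity and serve as binding proteins. Red blood cells carry large amounts of the cytosolic forms, so blood in a liver sample can contribute their transcripts.

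Car1 had 2 probes of 60 bases, and both lie in the gene on the minus strand of chromosome 3 (mm9). Their sequences are shown because the main difference of the family rests on these 2 stretches. No base is in capitals, since no motif was sought in the probes. Probe A_52_P317653 lies at chr3:14767486-14767545 and probe A_55_P2099952 at chr3:14770171-14770230.
A_52_P317653: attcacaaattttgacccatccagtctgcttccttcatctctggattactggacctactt
A_55_P2099952: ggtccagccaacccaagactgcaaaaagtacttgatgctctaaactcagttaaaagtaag

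Ppp1r8, the targeted gene, had log2 knockout over control ratios of -0.60, -0.73, -0.74 and -0.63 on replicates 1 to 4, a mean of -0.68 ± 0.07 (SD, n = 4; limma adjusted p 0.0586). The mean was -1.33 when taken from processed signals. Of the 16241 genes tested, none reached the 0.05 level of adjusted p in limma (0 higher and 0 lower, smallest adjusted p 0.0534), while 3695 (22.8%) had an unadjusted p under 0.05. The 0.1 level was passed by 574 genes (3.53%) with higher and 336 (2.07%) with lower signal in knockout livers. Correlations of the ratios between arrays ran from -0.273 to 0.525 over genes, which are not independent replicates. The defining markers of hepatocytes were well above background, with 19 of 19 tested and a summed linear intensity of 1647000 to 2290000 in knockout livers and 1610000 to 2288000 in control livers. Pancreatic acinar markers differed between the mice of an array, with median log2 ratios of 4.2, -2.60, -0.16 and -1.02 on replicates 1 to 4.

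Car1 transcript was lower and Car14 transcript higher in knockout than in control livers on all 4 arrays. The other members had smaller or mixed differences. Of the 10 members, 7 had a probe well above background in all 8 mice, the scanner software's flag for a detected spot. With Car5b, 8 passed the filter, which asked for that flag in at least 3 mice of 1 genotype, and Car12 and Car13 had it in 0 of 8 mice. Among the 8 that passed, Car1 and Car8 (2 members) had negative ratios on all 4 arrays, beside 10.9% of all genes tested. Car2, Car5a and Car14 (3 members) had positive ratios on all 4 arrays, beside 13.3% of genes. The other 3, Car3, Car4 and Car5b, had mixed signs. These counts follow from the contrast the members were chosen with, and nothing is read from them. The median ratio of the 8 was 0.13, against -0.0007 over all genes tested. Car5b is among the 8 and passed the filter through its knockout mice alone, and nothing is read from this median either.

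**Figure D1:**
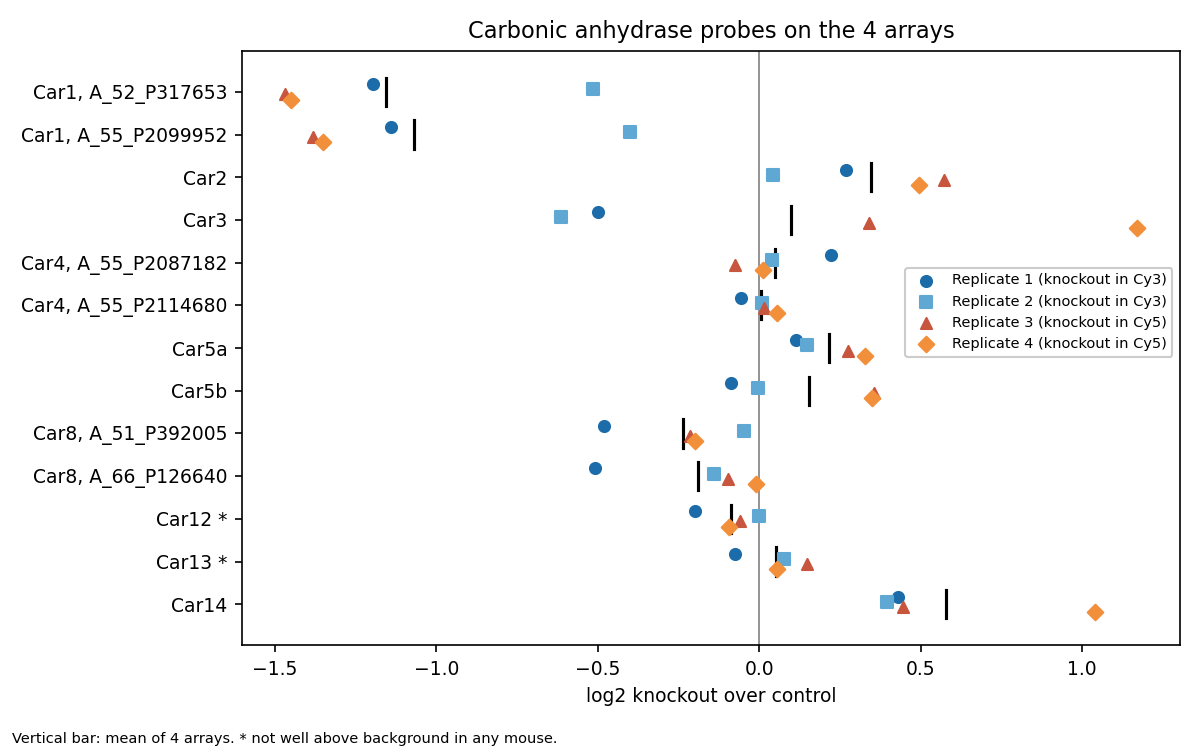
Log2 knockout over control ratio (x axis) of all 13 probes of the 10 carbonic anhydrase genes (rows) on each of 4 arrays; marker shape and colour give the replicate and the dye of the knockout RNA, and the vertical bar is the mean. Both Car1 probes lie below 0 on every array, Car14 lies above 0 on every array, and Car3 is below 0 on replicates 1 and 2 and above 0 on replicates 3 and 4.

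Car1, a cytosolic carbonic anhydrase known from red blood cells and the colon, was the member with the lowest ratio. Normalized levels of the brighter probe, A_52_P317653, were 8.15, 8.26, 7.94 and 7.84 log2 units in the knockout mice of replicates 1 to 4, against 9.35, 8.77, 9.41 and 9.29 in the control mice. All 4 knockout mice lay below all 4 control mice, as for 5.02% of genes tested, and 0.51 log2 units separated the nearest mice of the groups. The knockout mice averaged 8.05 ± 0.19 and the control mice 9.20 ± 0.29 (SD, n = 4 each). The ratios were -1.20, -0.51, -1.47 and -1.45, a mean of -1.16 ± 0.45 (SD, n = 4), or 0.448-fold in knockout over control. The smallest ratio came from replicate 2. Its control mouse had the lowest Car1 level of the 4 control mice, and its knockout mouse the highest of the 4 knockout mice.

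In the processed signals of the scanner software, which have no offset added, the same probe read 206, 197, 169 and 149 units in knockout mice, against 563, 304, 612 and 539 units in control mice. The groups again did not overlap. The mean log2 ratio was then -1.45 ± 0.58 (SD, n = 4), or 0.366-fold.

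The dimmer probe, A_55_P2099952, gave levels of 7.30, 7.53, 7.05 and 7.05 in knockout mice, against 8.44, 7.93, 8.43 and 8.40 in control mice. Its ratios were -1.14, -0.40, -1.38 and -1.35, with a mean of -1.07 ± 0.46 (SD, n = 4). On any array its ratio differed from that of the first probe by at most 0.114. The order of the arrays was the same for both probes, with replicate 2 nearest to 0. With the processed signals its mean was -1.64 ± 0.77. Among 16241 mean ratios that of Car1 had rank 24 from the lowest. The mean of the brighter probe was -1.14, -1.37, -1.05 and -1.06 without replicates 1, 2, 3 and 4 in turn.

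**Figure D2:**
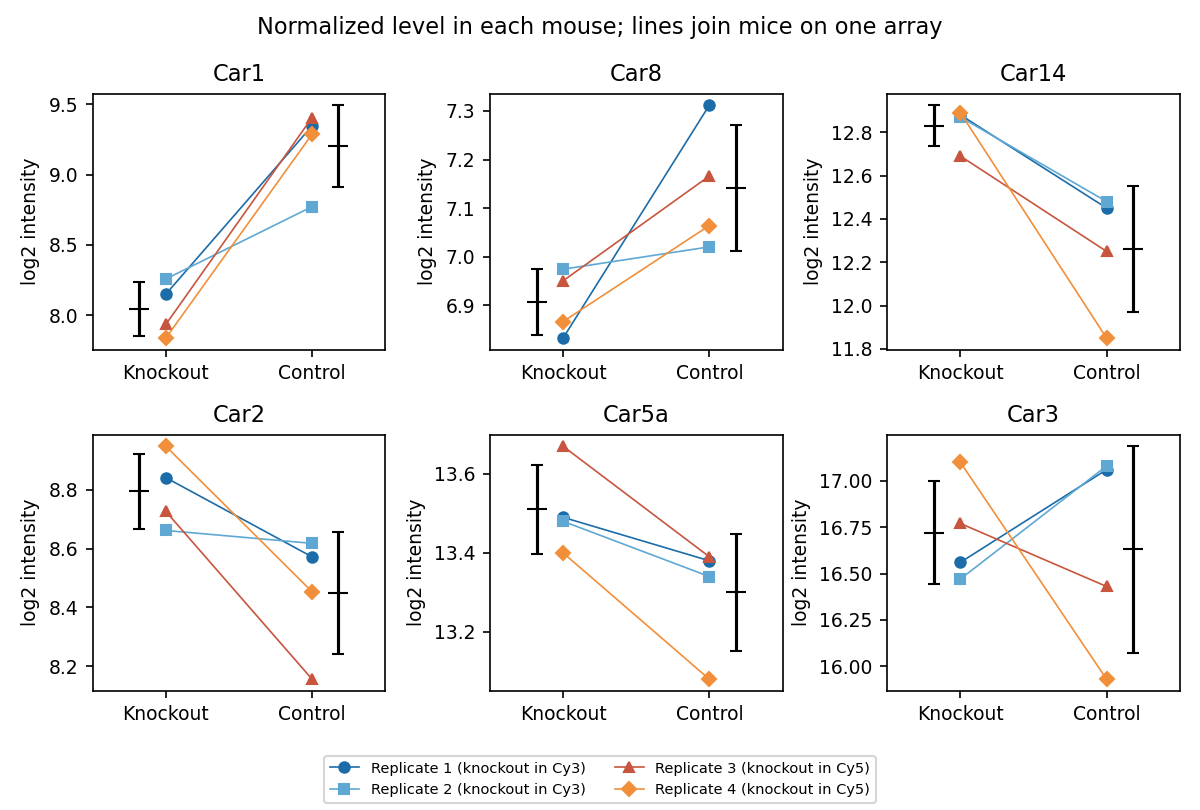
Normalized log2 intensity (y axis, a separate range in each panel) of 6 members in each knockout and control mouse, with lines joining the 2 mice of an array and black bars giving the mean and SD of 4 mice. Car1 and Car8 slope up to the control on every array, Car14, Car2 and Car5a slope down, and the lines of Car3 cross.

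Genes of red blood cells were set beside Car1, because blood in the liver would bring Car1 transcript with it. In bulk liver, fewer cells of a type and less RNA per cell cannot be told apart. Of 26 such genes with a probe, 14 were tested, and none was higher or lower at an adjusted p under 0.1 in limma. A mean below 0 was found for 13 of the 14, most of them with mixed signs over the arrays. The median log2 ratio of the 14 was -0.11, against -0.0007 over all genes tested. The array medians were -0.13, 0.08, -0.28 and -0.03 on replicates 1 to 4. The summed level of the 14 genes ranged from 131700 to 198700 in knockout mice and from 156400 to 196300 in control mice, so the ranges overlapped.

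Hba-a1, an alpha globin, had ratios of -0.18, 0.21, -0.73 and 0.17. Alas2, the haem synthesis enzyme of red cell precursors, had 0.36, -2.08, -2.28 and -2.26, a mean of -1.56 (limma adjusted p 0.145). Klf1, a transcription factor of red cell precursors, was below 0 on all 4 arrays like Car1, with -0.26, -0.08, -0.19 and -0.77, a mean of -0.32 (limma adjusted p 0.206). Both were named after their values were seen. Another 11 markers were not well above background in any mouse, Gata1, Ahsp, Rhag and Sptb among them. The part of blood or red cell precursors in the Car1 difference was not tested.

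**Figure D3:**
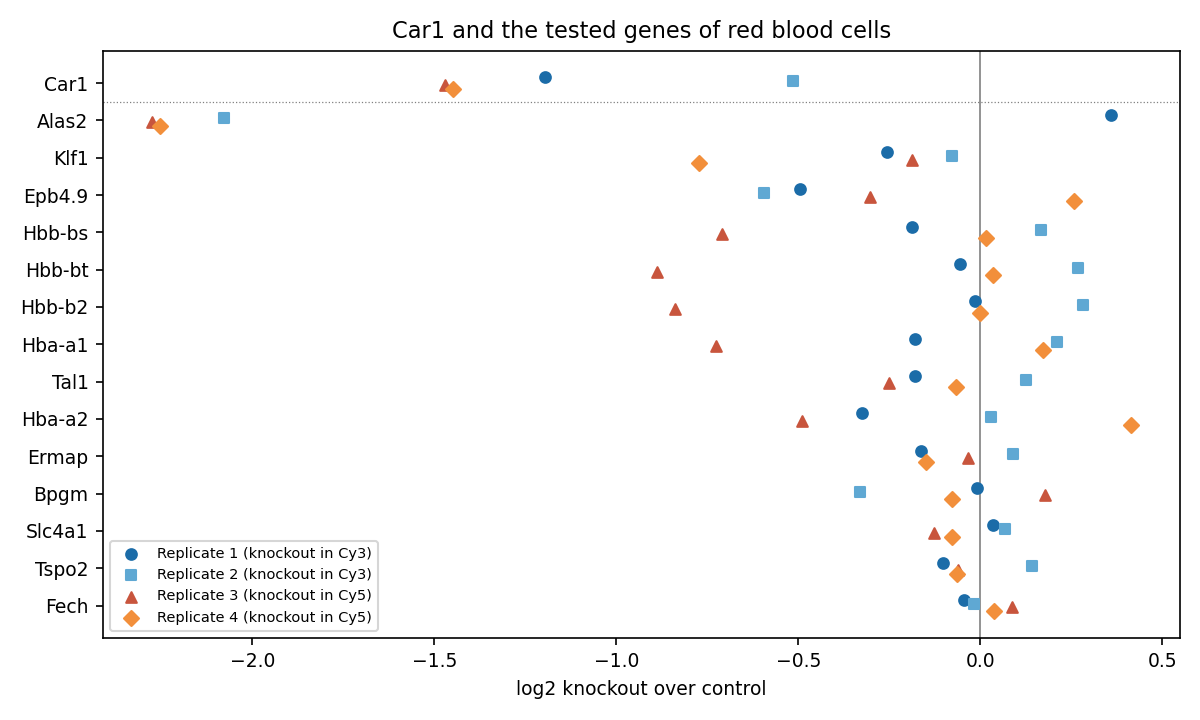
Log2 knockout over control ratio (x axis) of Car1 (top row) and of the 14 tested genes of red blood cells (rows below the dotted line), with one marker per array. The globins lie on both sides of 0, Alas2 is far below 0 on replicates 2 to 4 and above 0 on replicate 1, and Car1 is below 0 on all 4 arrays.

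Car1 lies in a group of carbonic anhydrase genes on chromosome 3, which the choice by name did not use. By probe start on mm9 the order is Car13 at 14662332, Car1 at 14767486, Car3 at 14871781 and Car2 at 14900206. The neighbours differed in ratio. Car13, a cytosolic form, was not above background, Car2 was higher in knockout livers on all 4 arrays, and Car3 had no common sign. Car14 is on the same chromosome but far away, at chr3:95701859-95701918.

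Car2, the cytosolic form with very high activity, had levels of 8.84, 8.66, 8.73 and 8.95 in knockout mice, against 8.57, 8.62, 8.16 and 8.45 in control mice. Every knockout mouse lay above every control mouse, as for 7.11% of genes tested, but only 0.04 log2 units separated the nearest mice. In the processed signals the groups overlapped, with 351 units in the lowest knockout mouse and 378 in the highest control mouse. The ratios were 0.27, 0.04, 0.57 and 0.50, with a mean of 0.35 ± 0.24 (SD, n = 4). With median centring in place of the loess curve, its ratio was negative on 2 of the 4 arrays. Car2 is also abundant in red blood cells, and the part of blood in its values was not tested.

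Car3, a cytosolic form with low activity that is abundant in liver, muscle and fat, was the brightest member. Its levels were 16.56, 16.47, 16.77 and 17.10 in knockout mice, against 17.06, 17.08, 16.43 and 15.93 in control mice, and the groups overlapped. The ratios were -0.50, -0.62, 0.34 and 1.17, with a mean of 0.10 ± 0.83 (SD, n = 4). Both arrays with the knockout in Cy3 were negative and both with it in Cy5 positive, a pattern that 24.3% of genes tested had in one direction or the other. The 2 orientations held different mice, so dye and mouse cannot be told apart here. Without replicate 4 the mean was -0.26.

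Skeletal muscle and fat, where Car3 is also made, were set beside it. The 6 tested muscle markers all had a mean below 0, most with mixed signs over the arrays. Their median was -0.18, against -0.0007 over all genes tested, and none passed an adjusted p of 0.1 in limma. The 10 tested fat markers had a median of 0.03, also with none past 0.1. Fabp4, a fatty acid carrier of fat cells, had ratios of 0.16, -0.23, -0.77 and 0.34. The part of these tissues in the Car3 values was not tested.

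Car5a and Car5b are the mitochondrial forms. Car5a, the main one of the liver, had levels of 13.49, 13.48, 13.67 and 13.40 in knockout mice, against 13.38, 13.34, 13.39 and 13.08 in control mice. Every knockout mouse lay above every control mouse, as for 7.11% of genes tested, but the nearest mice were only 0.01 log2 units apart. In the processed signals the groups overlapped. The ratios were 0.11, 0.15, 0.28 and 0.33, with a mean of 0.22 ± 0.10 (SD, n = 4), or 1.16-fold. Car5b, whose gene is on the X chromosome, was well above background in 3 of 4 knockout mice and 1 of 4 control mice. Its ratios were -0.09, -0.004, 0.36 and 0.35, with a mean of 0.15 ± 0.23. With the processed signals the Car5b ratios were positive on all 4 arrays, and the mean was 0.84 ± 0.79.

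Car14, a transmembrane form found on the surface of hepatocytes, had the highest ratio of the members. Its levels were 12.88, 12.87, 12.69 and 12.89 in knockout mice, against 12.45, 12.48, 12.25 and 11.85 in control mice. All knockout mice lay above all control mice, as for 7.11% of genes tested, with a gap of 0.21 log2 units. The ratios were 0.43, 0.39, 0.45 and 1.04, with a mean of 0.58 ± 0.31 (SD, n = 4), or 1.49-fold, and rank 298 from the highest of 16241 genes. Replicate 4, whose control mouse had the lowest level, gave the largest ratio. Without it the mean was 0.42. The Car14 ratio was negative on 2 of the 4 arrays with median centring in place of the loess curve.

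Car4, attached to the outer face of the membrane by a lipid anchor, had levels of 10.57, 10.73, 10.87 and 10.82 in knockout mice, against 10.62, 10.72, 10.85 and 10.77 in control mice. The 2 groups lay over each other. The ratios of this probe, A_55_P2114680, were -0.06, 0.01, 0.01 and 0.05, with a mean of 0.006 ± 0.046 (SD, n = 4), the smallest spread of any member. A second probe was well above background in 1 knockout and 1 control mouse. Car12, another transmembrane form, was not well above background in any mouse, and no level or fold is given for it or for Car13.

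Car8 has lost the enzyme activity and binds an inositol trisphosphate receptor. Its brighter probe, A_51_P392005, had levels of 6.83, 6.97, 6.95 and 6.87 in knockout mice, against 7.31, 7.02, 7.17 and 7.06 in control mice. Every knockout mouse lay below every control mouse, as for 5.02% of genes tested, and the nearest mice were 0.05 log2 units apart. In the processed signals the groups overlapped with both Car8 probes. The ratios were -0.48, -0.05, -0.22 and -0.20, with a mean of -0.23 ± 0.18 (SD, n = 4). The other probe gave -0.51, -0.14, -0.10 and -0.01, with a mean of -0.19 ± 0.22. Replicate 1 was lowest with both probes, and without it the means were -0.15 and -0.08. With the processed signals the means were -0.43 and -0.49, and the brighter probe had 0.02 on replicate 2.

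Promoter windows of RefSeq (GRCm38.p6) were found for 5 of the 10 members. The 250 bases before the start are shown for Car14 and Car5a, with searched motifs in capitals. In these members the normalized levels of knockout and control mice did not overlap. Both strands were searched for the TATA box as TATAAA and the CCAAT box by its own letters, with the GC box as GGGCGG, the STAT5 site as TTCNNNGAA and the core of the antioxidant response element as TGACNNNGC.
Car14, chr3:95904686-95904935, minus strand: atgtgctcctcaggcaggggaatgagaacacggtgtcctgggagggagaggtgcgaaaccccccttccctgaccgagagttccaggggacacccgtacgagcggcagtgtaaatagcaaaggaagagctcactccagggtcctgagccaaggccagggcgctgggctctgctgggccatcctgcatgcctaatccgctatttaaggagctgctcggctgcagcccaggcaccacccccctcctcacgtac
Car5a, chr8:121944913-121945162, minus strand: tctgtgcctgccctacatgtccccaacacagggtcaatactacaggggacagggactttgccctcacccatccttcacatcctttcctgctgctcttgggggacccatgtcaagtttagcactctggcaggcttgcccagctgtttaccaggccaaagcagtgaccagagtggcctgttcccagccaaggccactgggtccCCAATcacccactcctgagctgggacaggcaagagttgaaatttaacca

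The Car14 window held no searched motif, 10 CpG dinucleotides and 62.0% G or C. The Car5a window held CCAAT, whose first base lies 49 bases before the start, and no CpG. Over all 32851 windows the median was 6 CpG and 52.4% G or C, and CCAAT was in 33.8%, GGGCGG in 32.7%, TATAAA in 12.4%, TGACNNNGC in 10.2% and TTCNNNGAA in 7.0%. A match is a run of letters and was not tested as a site.

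Members of the family outside the 10, listed together with an inhibitor gene, were not chosen for their values. Their results were within reach when the list was made. Of 9 genes of this list with a probe, 6 were tested, and 0 were higher or lower at an adjusted p under 0.1 in limma. Car7, a cytosolic form, had a log2 ratio of 0.16 (adjusted p 0.190). Car9, a transmembrane form induced by low oxygen, had 0.18 (adjusted p 0.322) and was well above background in 3 knockout mice and 1 control mouse. Car11, which lacks the activity, had 0.14 (adjusted p 0.456), and Car15, a lipid-anchored form, 0.01 (adjusted p 0.959). Ptprg, a receptor phosphatase with a carbonic anhydrase-like domain, had -0.12 (adjusted p 0.449). 1300017J02Rik, listed by RefSeq under synonyms for an inhibitor of carbonic anhydrase, had -0.10, -0.13, -0.36 and -0.26 on the 4 arrays, a mean of -0.21 (adjusted p 0.117). Car6, Car10 and Ptprz1 were not well above background in any mouse.

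Genes that move or use bicarbonate were compared with limma in the same fit. None of 11 tested bicarbonate and anion exchangers was higher or lower at an adjusted p under 0.1, and Slc4a2, an anion exchanger, had a log2 ratio of 0.07. Of 9 tested proton transport genes, 2 were higher at that threshold and none lower. Among these Slc16a7, a monocarboxylate transporter, had 0.49 (adjusted p 0.0888). Of 8 tested bicarbonate-fixing enzymes, 1 was lower and none higher, namely Mccc2, a subunit of the carboxylase of leucine breakdown, with -0.32 (adjusted p 0.0801). Its ratios were -0.59, -0.52, -0.15 and -0.01 on replicates 1 to 4. The medians of these lists were 0.01, 0.05 and -0.14, against -0.0007 over all genes.

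Neither the urea cycle list nor the gluconeogenesis list had a gene past an adjusted p of 0.1 in limma. For the urea cycle and ammonia handling, 12 genes were tested, with a median log2 ratio of -0.06. Ass1, argininosuccinate synthase, had 0.21 and Arg1, arginase, 0.19 (adjusted p 0.126). For gluconeogenesis 11 were tested, with a median of -0.02. Fbp1, fructose bisphosphatase, had 0.11. Pck1, the cytosolic carboxykinase of gluconeogenesis, had -0.65, -0.49, -1.95 and -0.69, a mean of -0.94 (adjusted p 0.123). It lay below 0 on every array, with the value of replicate 3 farthest down.

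Zone and sex lists were added because several carbonic anhydrases differ between liver zones or between sexes. Of 16 tested pericentral genes, 2 were higher at an adjusted p under 0.1 and none lower: Aldh3a2, a fatty aldehyde dehydrogenase, had 0.92 on the log2 scale (limma adjusted p 0.0632) and Oat, ornithine aminotransferase, 0.40 (0.0665). The ratios of Oat were 0.77, 0.66, 0.13 and 0.009 on replicates 1 to 4. Of 16 tested periportal genes, 3 were higher and none lower. Apoa4, an apolipoprotein, had 1.46, Aldh1b1, a mitochondrial aldehyde dehydrogenase, 0.78 and Hsd17b13, a lipid droplet enzyme, 0.58. The medians were 0.14 for pericentral and 0.08 for periportal genes.

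Female-biased genes had positive mean ratios in 11 of 11 tested, with a median of 0.78 against -0.0007 over all genes tested. Of these, 3 passed 0.1 as higher and none as lower. The array medians of the list were -0.31, 0.77, 0.77 and 1.21, so replicate 1 had the opposite sign to the others. Cyp2a4, a steroid hydroxylase, had 1.37 (limma adjusted p 0.0964), Prlr, the prolactin receptor, 0.82 and Trim24, a transcription cofactor, 0.41. These 3 were positive on replicate 1, at 0.66, 0.23 and 0.01, while every other tested gene of the list was negative there. Of 18 male-biased genes, 2 passed as lower and none as higher, with a median of -0.47. Slco1a1, an organic anion transporter, had -1.0 (limma adjusted p 0.0588) and C8a, a complement subunit, -0.64. The array medians of the male-biased list were 0.33, -0.43, -0.89 and -0.65, again with replicate 1 of opposite sign. Slco1a1 and C8a were negative on replicate 1 too, at -0.30 and -0.13. The part of sex-biased expression in the carbonic anhydrase values was not tested.

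Of the other cell type markers, 5 of 15 tested biliary genes were higher at an adjusted p under 0.1 and none lower, among them Dmbt1, an epithelial glycoprotein, with a log2 ratio of 2.18 (limma adjusted p 0.0534), Tspan8, a tetraspanin, with 0.67 and Krt19, a bile duct keratin, with 0.64. The summed level of the biliary list was 11130 to 12990 in knockout mice and 9569 to 11680 in control mice. All 17 tested endothelial genes had a mean below 0, with a median of -0.13 against -0.0007 over all genes tested, and none passed. Most of the 17 had mixed signs over the arrays. Their summed level was 36020 to 39210 in knockout mice and 41480 to 42390 in control mice, so these ranges did not overlap. Of 19 hepatocyte genes, 1 was higher and none lower, Alb, which encodes albumin, with 0.44 and ratios of -0.44, -0.24, 1.20 and 1.24. Kupffer cell, stellate cell and acinar lists had none past 0.1 in either direction. Over all 19 lists, 16 of 234 genes (6.84%) were higher and 3 (1.28%) lower, beside 3.53% and 2.07% of all genes tested. The lists were made with earlier results of these data known, and nothing is read from these shares. The part of these cell types in the carbonic anhydrase values was not tested.

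The genes given as near to Car1 had a small root mean square difference from its ratios on the 4 arrays. Spns1, a lysosomal lipid transporter, came first with a difference of 0.328 log2 units and ratios of -0.86, -0.60, -1.11 and -1.03. Eml3, a microtubule-associated protein, followed with 0.368, Epop, a Polycomb-associated protein, with 0.379 and Slc17a2, a transporter of the phosphate transporter family, with 0.428. None of these 4 had a mean as low as Car1 by its brighter probe, and the means ran from -1.12 for Epop to -0.86 for Slc17a2.

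For Car14 the nearest were Cdkn2c, an inhibitor of cyclin-dependent kinases, at 0.140, Loxl4, a lysyl oxidase of the extracellular matrix, at 0.143, Xdh, xanthine dehydrogenase, at 0.151, Tert, the telomerase catalytic subunit, at 0.166 and H3c1, a histone H3 gene, at 0.168. Cdkn2c had ratios of 0.46, 0.60, 0.59 and 0.92. All 5 were positive on every array, and each had its largest ratio on replicate 4. They were picked for their likeness, over 4 arrays, and carry no test.

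**Figure D4:**
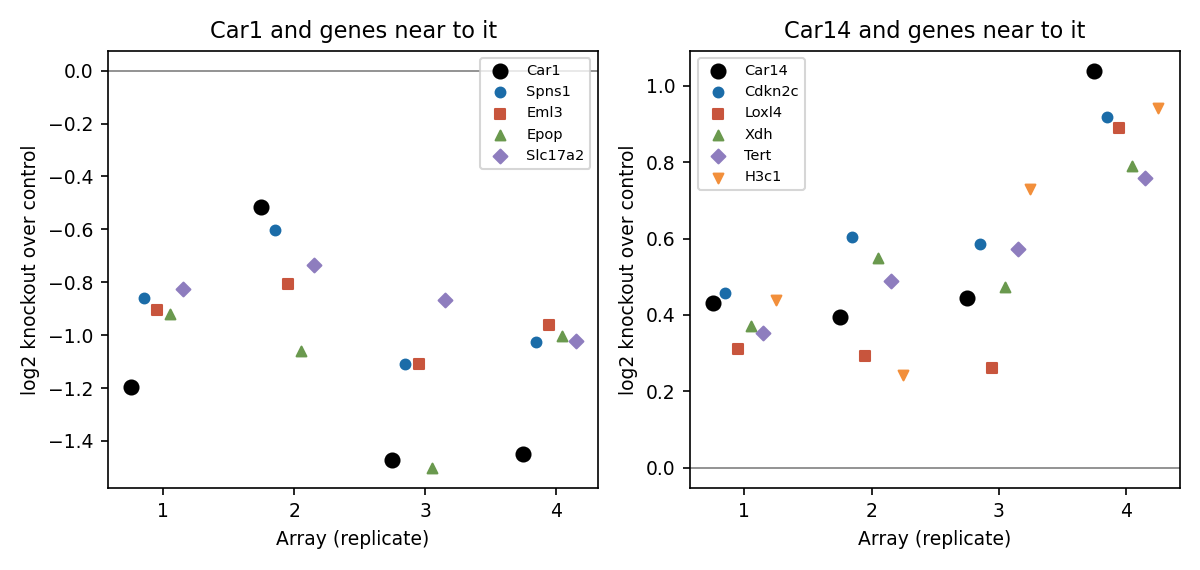
Log2 knockout over control ratio (y axis) on each of 4 arrays (x axis, replicates in no order) of Car1 (left, black) and Car14 (right, black) and of genes with a small root mean square difference from each (coloured markers, 4 on the left and 5 on the right). On the left all values lie below 0, and on the right all lie above 0.

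The mean ratios of the members were compared over processing choices. Background correction, processed signals, offset and normalization were changed in turn, and each array was left out, 10 settings in all with the reported run. Leaving out an array could not change the sign on the arrays that remained, so only changed processing could alter signs. Both Car1 probes were negative on every array used in all 10. Their means were -1.45 to -1.05 for the brighter probe and -1.64 to -0.91 for the other. Car2, Car5a and Car14 were positive on every array used in 9 of the 10 settings. The exception was median centring in place of the loess curve, where each was negative on 2 arrays. The means there were 0.37 ± 0.82 for Car2, 0.27 ± 1.07 for Car5a and 0.63 ± 1.12 for Car14 (SD, n = 4), so the mean kept its sign and the spread grew. Car1 had -1.12 ± 0.36 under the same centring.

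**Figure D5:**
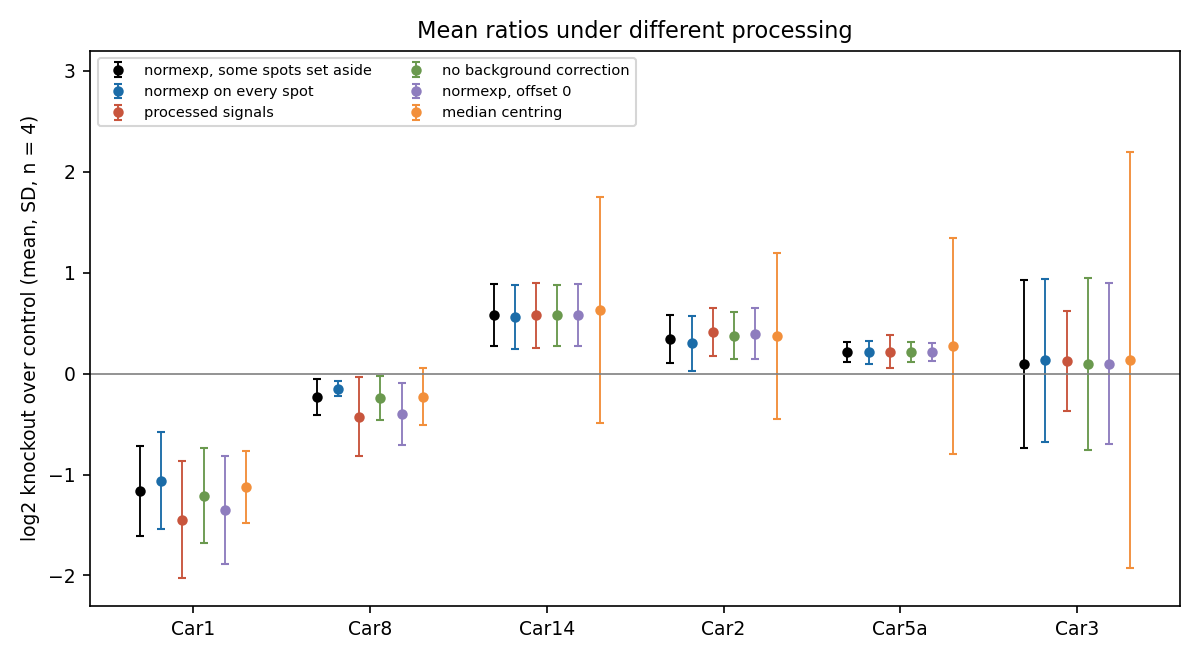
Mean log2 knockout over control ratio (y axis) with SD over 4 arrays for 6 members under 6 ways of processing (colours). Car1 lies below 0 by more than its SD in all 6, while the bars of Car14, Car2 and Car5a cross 0 with median centring only.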

How the data were processed

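Total RNA of 4 knockout and 4 control livers was hybridised in pairs to 4 Agilent 4x44K v2 mouse arrays on 1 slide, so no batch could be tested. Per the labels' protocols, cRNA made from the RNA carried Cy3 or Cy5. Agilent Feature Extraction 10.7.3.1 made the deposited files. Per the file headers, they give, per spot and dye, a mean intensity, a local background and a processed intensity that the software had background-subtracted and dye-normalized. The authors' deposited value table has log2 ratios, which differ by at most 5e-06 from log2 knockout over control of the processed signals, with column medians of -0.05, 0.14, -0.18 and -0.18. It was not used otherwise.

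Background was corrected by normexp with offset 50 in limma 3.58.1 (R 4.3.3), its parameters fitted without spots more than 20 units under local background (8, 2, 0 and 1 spots on replicates 1 to 4). With every spot, the fitted means on replicate 1 were -273 in Cy3 and -184.6 in Cy5, against 4.07 and -12.19 as used. Loess within arrays followed, control spots having no weight. Control and outlier spots were left out, spots of a probe averaged, and probes kept if well above background in 3 mice of 1 genotype. The brightest probe stood for a gene (20818 probes, 16241 genes). Levels per mouse came from the ratios and the average intensities, quantile-normalized between arrays. No spot was saturated, and the number of arrays limits the precision.

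limma was fitted to the 4 ratios with a dye intercept, two-sided, with Benjamini-Hochberg adjustment over all genes and thresholds of 0.05 and 0.1. The intercept lets genes whose sign differs between dye orientations pass. The method was tested on simulated data. Named were all members, the family outside them, Ppp1r8, up to 3 genes of each list past 0.05 or else 0.1, otherwise the 2 brightest, and the 5 genes nearest to Car1 and to Car14; some genes the rule names are not reported here. Members and lists were chosen with earlier results of these data known. Alternatives changed the background correction, normalization, dye term, filter, fit, probe rule and arrays. Symbols of 27234 of 39429 probes were updated through RefSeq accessions, and positions are mm9 as in the files. Python 3.11.15, pandas 2.3.3 and matplotlib 3.10.9 made sequences and figures.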

Additional observations from a re-analysis of the deposited data

Results flagged for a closer look

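In groups of 4 mice or arrays, a value was singled out when its gap to the nearest of the others, divided by the range of the group, exceeded Dixon's critical value for 4. Of 84 groups looked at, 7 (8.33%) had such a value, where chance gives about 1 in 20 independent groups. These groups are not independent, since some share mice or probes and some genes were picked for likeness to Car1 or Car14. The 2 rates are therefore not compared. For Car1, the control level of probe A_55_P2099952 was 7.93 on replicate 2, with the other control mice at 8.40 to 8.44. For Car8, the control level of probe A_66_P126640 was 7.27 on replicate 1, with the others at 6.91 to 6.94. For Car14, the log2 ratio was 1.04 on replicate 4, with the other arrays at 0.395 to 0.445, and the knockout level was 12.7 on replicate 3, with the other knockout mice at 12.9. Loxl4, one of the genes nearest to Car14, had a log2 ratio of 0.889 on replicate 4, with the others at 0.26 to 0.312. Pck1 had a log2 ratio of -1.95 on replicate 3, with the others at -0.688 to -0.485. Amy2a5, an amylase gene of the acinar list, had 1.11 on replicate 1, with the others at -0.2 to -0.0269.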

How the results depend on the processing

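Over all genes, 0 passed an adjusted p of 0.05 in limma as reported. With other settings the counts higher and lower in knockout livers were 5 and 3 with the processed signals, 19 and 10 with no background correction, 163 and 48 with median centring, 6 and 4 with no dye term, 174 and 88 with no filter, 1573 and 1181 with the separate-channel fit, and 313 and 162 with trend and robust. At 0.1, where 574 were higher and 336 lower, the counts were 245 and 198 with normexp fitted on every spot, 152 and 77 with no dye term, 2293 and 1936 with the separate-channel fit, and 1001 and 643 with trend and robust. Median centring gave 1051 higher. Leaving out 1 array gave 0 to 45 higher and 0 to 25 lower. Without replicate 1 there were 45 and 25, and without replicate 2, 3 or 4 there were 0 and 0; fewer arrays leave fewer degrees of freedom. Of the list genes, 19 passed 0.1 as reported, 12 with normexp on every spot, 5 with no dye term, 59 with the separate-channel fit, 31 with trend and robust, and 0 to 5 with 1 array left out, 5 of these without replicate 1 and 0 without replicate 2, 3 or 4.

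Car1 by probe A_55_P2099952 had -1.64 with the processed signals, against -1.07. Tested members negative on every array numbered 2 as reported and 1 with the processed signals or with no background correction. Members positive on every array numbered 3 as reported, 4 with the processed signals and 0 with median centring. Ppp1r8 passed 0.05 in limma with median centring (-0.677, adjusted p 0.0447), with no filter (-0.678, 0.0381), with the separate-channel fit (-0.678, 0.000889) and with trend and robust (-0.678, 0.028). Ppp1r8 did not pass 0.1 in limma with normexp fitted on every spot (-0.571, adjusted p 0.106). Nor did it without replicate 1, 2, 3 or 4 (adjusted p 0.113, 0.171, 0.248 and 0.153). The cause of these changes was not tested. Ppp1r8 and the named list genes past an adjusted p of 0.1 kept their sign in each alternative run. Some values near 0 did not: Car15 had 0.01 as reported and -0.11 without replicate 2. A block for slide or scan was not run, since all arrays share 1 slide and scan. The fit is already paired by array, since each ratio sets 1 knockout against 1 control mouse of the same array. No further pairing was possible, because the labels tie no mice further. Dim probes, of Car8 and Car5b among the members, had smaller ratios with an offset of 50 than with the processed signals.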
